A study of Mus musculus with 9 samples.

Results

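The metallothionein genes Mt1, Mt2, Mt3 and Mt4, together with the metal sensor gene Mtf1, were followed in mouse fetal heart ventricle with and without estrogen-related receptor gamma (ERRg, gene Esrrg). The members were all probe sets that the array's annotation assigns to these 5 genes, which gave 10 of the 45037 probe sets other than controls, for 5 of 18193 named genes. Of the 10 probe sets, 2 name Mt1, 1 each Mt2, Mt3 and Mt4, and 5 Mtf1. Mt3 entered because its signal had been seen to be lower in ERRg -/- than in +/+ ventricle, so that difference is described here without a test. Ventricles were taken from male fetuses at stage E18.5, shortly before birth, and the genotypes are called WT (ERRg +/+), HET (ERRg +/-) and KO (ERRg -/-), with 3 arrays each. The labels give neither strain nor the altered part of Esrrg, and name 3 ventricles per sample without saying whether they were pooled, so the error here is that between arrays, whatever its source. All values are MAS5 signals, a linear brightness per probe set that cannot be set against that of another probe set.

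Metallothioneins are small cysteine-rich proteins that bind zinc and copper and take up cadmium. Mt1 and Mt2 are active in most tissues and are switched on by zinc, cadmium, glucocorticoids and oxidative stress. Mt3 is known mainly from brain, where it was found as a growth-inhibitory factor, and Mt4 from stratified squamous epithelium. MTF1 is a zinc-finger transcription factor that senses zinc and binds metal response elements near the starts of Mt1 and Mt2. The comparisons ask whether these genes differ in ventricle when ERRg, an orphan nuclear receptor of cardiac energy metabolism, is reduced or lost.

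The 4 metallothionein genes lie side by side on mouse chromosome 8, in the order Mt4, Mt3, Mt2, Mt1 in the RefSeq annotation, and Mtf1 lies on chromosome 4. The RefSeq windows of Mt1, Mt2 and Mt3 are shown because these 3 genes gave the readable metallothionein signals, with matches to the core of the metal response element in capitals. Each window runs from 250 bases before to 50 bases after the annotated start in GRCm38.p6, on the + strand. That of Mt1 is chr8:94178839-94179138, that of Mt2 chr8:94172368-94172667 and that of Mt3 chr8:94152357-94152656.
Mt1: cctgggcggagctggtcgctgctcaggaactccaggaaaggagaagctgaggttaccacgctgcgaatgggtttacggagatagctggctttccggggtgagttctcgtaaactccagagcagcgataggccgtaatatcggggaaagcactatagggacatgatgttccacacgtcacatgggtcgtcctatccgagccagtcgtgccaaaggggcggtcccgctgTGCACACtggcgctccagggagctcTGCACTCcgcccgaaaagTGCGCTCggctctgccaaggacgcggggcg
Mt2: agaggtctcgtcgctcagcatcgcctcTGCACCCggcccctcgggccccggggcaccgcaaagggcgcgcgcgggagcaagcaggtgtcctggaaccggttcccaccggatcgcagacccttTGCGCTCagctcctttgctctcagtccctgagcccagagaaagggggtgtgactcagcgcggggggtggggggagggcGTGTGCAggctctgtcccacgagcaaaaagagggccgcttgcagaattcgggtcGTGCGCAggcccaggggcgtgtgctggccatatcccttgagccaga
Mt3: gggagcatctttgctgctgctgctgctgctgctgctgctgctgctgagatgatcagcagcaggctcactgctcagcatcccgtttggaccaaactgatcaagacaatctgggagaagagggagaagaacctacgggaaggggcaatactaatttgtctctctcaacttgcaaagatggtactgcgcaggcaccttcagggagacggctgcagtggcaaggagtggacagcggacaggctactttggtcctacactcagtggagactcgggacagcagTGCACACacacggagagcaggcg
The core was searched as TGCACNC and TGCGCNC on both strands. It was found 3 times in the Mt1 window, 4 times in that of Mt2 and 1 time each in those of Mt3 and Mt4, with no match in that of Mtf1. The matches did not overlap each other. Of all 32534 distinct windows of this length, 25.9% held at least 1 such match and 1.99% held 3 or more. The Mt3 match, 2 of the 3 in Mt1 and 1 of the 4 in Mt2 lie after the annotated start. The ERR element AAGGTCA, found in 4.71% of windows, had no match in the windows of the 5 genes. The antioxidant core TGACNNNGC, found in 12.4%, matched 1 time in Mt2, and TATAAA, found in 13.6%, matched 1 time in Mt4. These matches describe letters in 1 window per gene. The annotated start need not be the one used in ventricle.

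**Figure D1:**
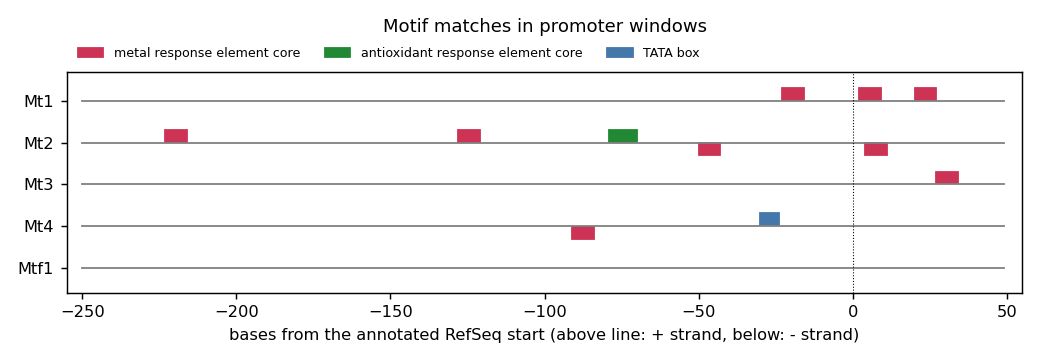
Motif matches in the promoter windows of the 5 genes, by distance in bases from the annotated RefSeq start, with + strand matches above and - strand matches below each line. Mt1 has 3 and Mt2 has 4 matches to the metal response element core (red), against 1 each in Mt3 and Mt4 and none in Mtf1.

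The brightest Esrrg probe set followed the labels, at 206 to 281 in WT, 162 to 164 in HET and 39.3 to 58.3 in KO, while 2 dimmer ones, with means of 23.4 to 64.4, overlapped between WT and KO. Heart muscle markers were bright on all arrays, with signals of 12670 to 33310 for 7 cardiomyocyte genes, and none of the 7 was called between genotypes. Their summed signal was 165300 to 177500 in WT, 148400 to 168500 in HET and 147800 to 163200 in KO. All KO arrays thus lay below all WT arrays, as they did for Mt1 and Mt3. That order held in 9.31% of all probe sets, and Mt3 was chosen on this contrast. The part of the summed signal in the Mt1 and Mt3 values was not tested. Array medians over all probe sets were 36.6 to 45.9. A ratio of bacterial spike-in probe sets (thr over dap, log2) parted the arrays into 2 array batches. It was -1.39 to -1.20 on 4 arrays, namely all WT and HET replicate 1, and -1.65 to -1.51 on the other 5. The cut was not sharp. The gap between the batches, from -1.39 (WT replicate 2) to -1.51 (KO replicate 3), was the widest. It was little wider than the gap from -1.27 (WT replicate 1) to -1.39 inside the first batch. Only HET lies in both batches, so KO and WT can be compared within a batch only through HET. Values with the batch as a block are given beside most differences of KO from WT. All of these values rest on HET replicate 1, the only HET array of the first batch. A sign that turned or a difference that shrank with the block therefore hangs on that array. For the 7 cardiomyocyte genes the KO minus WT differences with the block ran from -0.19 (Myh7) to 0.11 (Myh6). No run or date in the sources used here stands behind the partition into batches.

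Mt1 was the metallothionein with the least spread between arrays, and its KO arrays read slightly below WT without passing the test. Its brighter probe set, 1422557_s_at, read 6225, 6139 and 6210 on the WT arrays, 6855, 6112 and 5724 on the HET arrays, and 5809, 5278 and 5418 on the KO arrays. Every KO array thus lay below every WT array, while the HET arrays spanned a wider range that overlapped both. The means were 6191 ± 45.8 in WT, 6230 ± 575 in HET and 5502 ± 275 in KO (SD, n = 3 each), so that KO stood at 88.9% of WT. On the log2(signal + 16) scale the KO minus WT difference was -0.17 ± 0.08 (limma SE; 95% interval -0.34 to -0.0042). It was not called over all probe sets (limma, adjusted p = 0.417). Such a lack of overlap was common, since in 9.31% of all probe sets every KO array lay below every WT array. With the array batch as a block it turned to 0.041 ± 0.11 (limma, adjusted p = 0.975). Within the first batch HET replicate 1 lay 0.15 above the WT mean.

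Between HET and WT the Mt1 difference was 0.0050 ± 0.08 (95% interval -0.16 to 0.17), and its sign turned once arrays were given the same median (-0.039). KO minus HET was -0.18 ± 0.08 (limma, adjusted p = 0.999), and -0.11 ± 0.07 within the second batch. The letter s in the name of this probe set marks probes that can match more than 1 transcript, so a share of its signal may come from a related sequence. The other Mt1 probe set, 1451612_at, was dim, reading 4.51 to 18.9 on 8 arrays and 51.2 on KO replicate 3. It lay below the 40th percentile of mean brightness (a signal of 21.7), and it did not follow the brighter one.

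Mt2, the second broadly inducible member, showed no genotype difference beyond its spread. Probe set 1428942_at read 764, 850 and 989 on the WT arrays, 1044, 993 and 877 on the HET arrays, and 775, 932 and 1484 on the KO arrays. The genotypes overlapped, and KO replicate 3 stood above all other arrays. The means were 868 ± 113 in WT, 971 ± 85.2 in HET and 1064 ± 372 in KO (SD, n = 3 each). The KO minus WT difference was 0.24 ± 0.17 (95% interval -0.11 to 0.60; limma, adjusted p = 0.643). Without KO replicate 3 it was -0.02, so the higher KO mean rested on that array. HET minus WT was 0.16 ± 0.17 (limma, adjusted p = 0.837; 0.27 ± 0.23 with the array batch as a block), and KO minus HET was 0.08 ± 0.17 (limma, adjusted p = 0.999). The array batch as a block gave 0.40 ± 0.30 for KO against WT.

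Mt3 was chosen for its lower signal in KO than in WT, and its values are given here as a description. Probe set 1420575_at read 354, 431 and 262 on the WT arrays, 272, 229 and 238 on the HET arrays, and 247, 136 and 123 on the KO arrays. KO replicates 2 and 3 lay far below the other 7 arrays, whereas KO replicate 1 lay within the range of the HET arrays and close below the lowest WT array. The means were 349 ± 84.9 in WT, 247 ± 22.6 in HET and 169 ± 68.2 in KO (SD, n = 3 each), so that HET stood at 70.7% and KO at 48.4% of WT. The order of the means was thus WT, HET, KO. Neighbours in it overlapped, since HET replicate 1 lay above WT replicate 3 and KO replicate 1 lay above HET replicates 2 and 3.

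The KO minus WT difference of Mt3 was -1.01 ± 0.22 on the log2(signal + 16) scale, which understates changes of dim genes. It was -0.81 ± 0.39 with the array batch as a block, and it ranged from -1.30 without KO replicate 1 to -0.84 without KO replicate 3. KO minus HET, which shares the KO arrays that chose the gene and is likewise only described, was -0.56 ± 0.22. Within the second batch, which holds all KO arrays and HET replicates 2 and 3, it was -0.50 ± 0.25. HET minus WT, which shares the WT arrays that chose the gene and is described in the same way, was -0.45 ± 0.22. In the first batch HET replicate 1, the only array of its genotype there, differed from the WT mean by -0.31. In bulk ventricle, fewer cells of a type that holds the transcript and less transcript per cell cannot be told apart.

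Mt3 is best known from neural tissue, so nerve markers were set beside it. Of 5 glia and nerve markers, 3 were on the array under a probe set of their own, and 0 of these were called. Their summed signal was 45.4 to 103 in WT, 111 to 201 in HET and 111 to 124 in KO, and its part in the Mt3 values was not tested. Of these markers S100b was below the 40th percentile of brightness. Of 4 endothelial markers, 1 was called between KO and WT, namely Kdr, which encodes the receptor VEGFR2 (-0.74, limma, adjusted p = 0.0363, and -0.25 ± 0.18 with the array batch as a block). The other 3 went both ways between KO and WT, at 0.31 for Cdh5, -0.09 for Pecam1 and -0.03 for Tek. The endothelial sum was 2648 to 3095 in WT, 2257 to 2940 in HET and 2248 to 2488 in KO, and the part of these cells in the Mt3 values was not tested.

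Mt4 gave no readable level. Probe set 1450645_at read 3.11, 6.73 and 18.8 on the WT arrays, 16.4, 12.3 and 5.59 on the HET arrays, and 13.3, 12.4 and 9.59 on the KO arrays. These signals lay at the 18.0th percentile of mean brightness over all probe sets, and the genotypes overlapped (limma KO minus WT, adjusted p = 0.914). Markers of stratified epithelium, where Mt4 is known, were low to moderate. Krt5, Krt14 and Trp63 read 12.6 to 87.1 over the 9 arrays, and Krt10 275 to 401, with 0 of the 4 called.

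**Figure D2:**
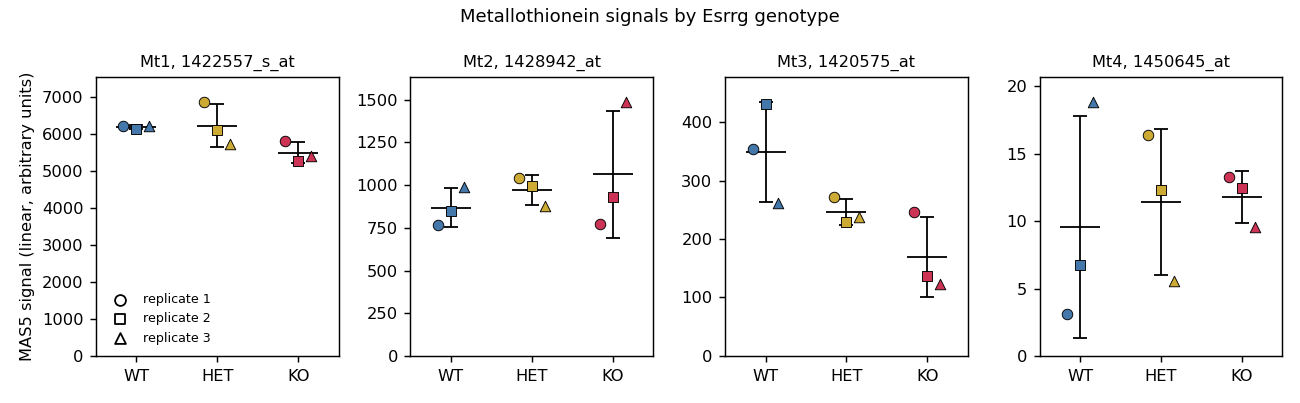
MAS5 signal (linear, y axis) of the brightest probe set of Mt1, Mt2, Mt3 and Mt4 in WT, HET and KO, with 1 symbol per array, the genotype mean as a bar and its SD as whiskers (n = 3). KO arrays lie below WT arrays for Mt1 (5278 to 5809 against 6139 to 6225) and Mt3 (123 to 247 against 262 to 431), and the genotypes overlap for Mt2 and Mt4.

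Read array by array, Mt1 and Mt3 both lay below their WT means on all 3 KO arrays, the direction for which Mt3 was chosen, whereas Mt2 lay below its WT mean on 1 of them. On KO replicate 3, Mt2 was 0.77 above its WT mean, Mt1 was -0.19 from it and Mt3 -1.37, all on the log2(signal + 16) scale. On KO replicate 2, Mt2 differed by 0.11, Mt1 by -0.23 and Mt3 by -1.23. On HET replicate 1, Mt1 and Mt2 were both at their highest outside KO, at 0.15 and 0.27, while Mt3 was at -0.31. Mt1 and Mt2, which answer to the same inducers, had a Pearson's r of -0.22 over the 9 arrays (exact permutation p = 0.555) and a Spearman's rho of -0.12 (exact permutation p = 0.776), two-sided, the only relation tested. Without KO replicates 2 and 3, the arrays farthest from the median of Mt1, r was 0.57 (exact permutation p = 0.165). Spearman's rho was then 0.21 (exact permutation p = 0.66). The sign thus rested on those arrays. As deviations from each genotype's mean, r was -0.03.

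**Figure D3:**
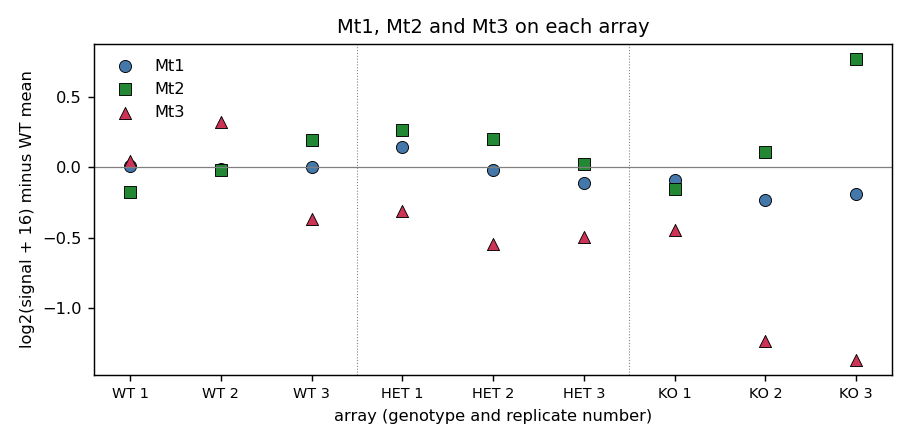
Difference of each array from the WT mean in log2(signal + 16) (y axis) for Mt1, Mt2 and Mt3 on the 9 arrays (x axis, dotted lines between genotypes). KO replicate 3 has the highest Mt2 (0.77) and the lowest Mt3 (-1.37), while Mt1 stays between -0.23 and 0.15 on all arrays.

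The members also differed in how much they varied within a genotype. The pooled within-genotype SD of Mt1 was 0.09 on the log2(signal + 16) scale, smaller than in all but 6.45% of the 27022 probe sets at or above the 40th percentile of brightness, whose median SD was 0.26. Mt2 had an SD of 0.30 and stood at the 59.5th percentile of that spread, and Mt3 had 0.36 and stood at the 68.3th. Brighter probe sets tend to have smaller spread on this scale, and Mt1 was brighter on average than 98.9% of all probe sets.

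Mtf1, the zinc sensor that acts on metallothionein genes, had 3 probe sets at or above the 40th percentile of brightness and 2 below it. Probe set 1418333_at read 185, 162 and 121 on the WT arrays, 193, 148 and 214 on the HET arrays, and 210, 152 and 101 on the KO arrays. Probe set 1429170_a_at read 132, 147 and 128 on the WT arrays, 127, 164 and 128 on the HET arrays, and 113, 128 and 128 on the KO arrays. Neither separated the genotypes. Probe set 1428979_at read 73.5, 100.4 and 111 on the WT arrays, 104, 122 and 115 on the HET arrays, and 97.7, 81.2 and 88.9 on the KO arrays. Its KO arrays all lay below its HET arrays, as did those of 5.93% of all probe sets, and overlapped WT.

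None of the Mtf1 probe sets was called. For 1428979_at the KO minus HET difference was -0.30 ± 0.22 (limma, adjusted p = 0.999), and -0.36 ± 0.21 within the second batch. KO minus WT was -0.05 ± 0.23 for 1418333_at (95% interval -0.54 to 0.44), -0.13 ± 0.19 for 1429170_a_at and -0.06 ± 0.22 for 1428979_at (limma, adjusted p = 0.973, 0.871 and 0.958), and with the array batch as a block these were 0.060 ± 0.42, -0.30 ± 0.33 and -0.23 ± 0.40. The dim probe sets varied over nearly their whole range within a genotype. Probe set 1440414_at read 1.49 to 9.36 in WT, 2.68 to 47.7 in HET and 1.85 to 24.3 in KO, and 1452990_at read 7.33 to 25.8, 1.08 to 20.3 and 2.10 to 7.99.

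**Figure D4:**
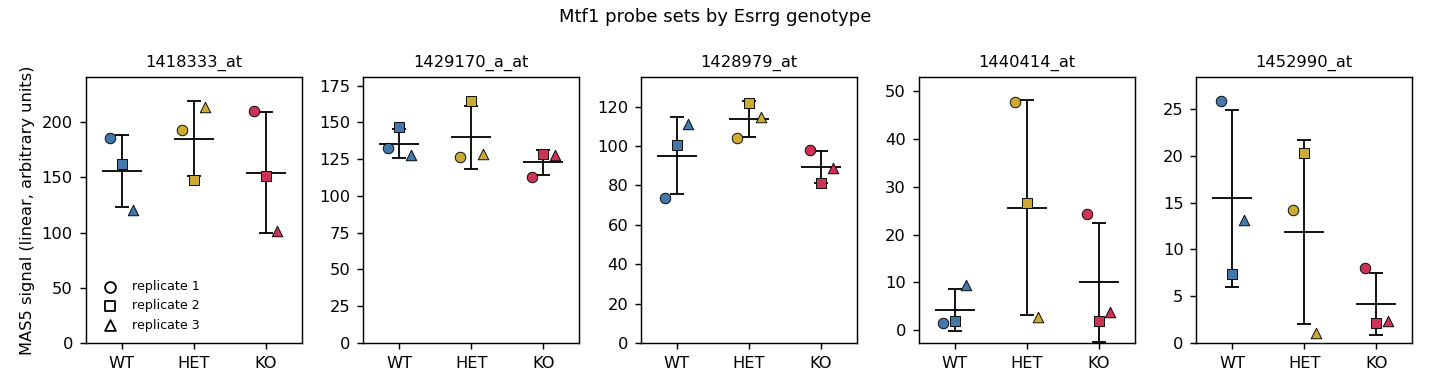
MAS5 signal (linear, y axis) of the 5 Mtf1 probe sets in WT, HET and KO, with 1 symbol per array, the genotype mean as a bar and its SD as whiskers (n = 3). The genotypes overlap in all panels except KO against HET for 1428979_at (81.2 to 97.7 against 104 to 122), and the 2 panels on the right show dim probe sets.

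Over the 9 member probe sets other than Mt3, limma called 0 in each of the 3 comparisons. Between KO and WT 0.298% of all probe sets were called (134, of which 83 were higher and 51 lower in KO), between HET and WT 0.0% and between KO and HET 0.00444% (2). At these rates no call among 9 probe sets is the usual outcome. At an unadjusted p under 0.05 the limma counts over all probe sets were 5220, 3903 and 1999. The count between KO and WT was 1 with the array batch as a block, and that between HET and WT was 883 without HET replicate 1, with 0 of the 9 called in either.

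Counted by arrays that do not overlap, 2 of the 10 member probe sets had every KO array below every WT array (Mt1 1422557_s_at and Mt3, the latter chosen on this contrast), against 9.31% of all probe sets, and 0 had every KO array above, against 8.78%. Between KO and HET, 1 of 10 had every KO array below (Mtf1 1428979_at, background 5.93%) and 0 above (background 4.37%). Between HET and WT, 0 of 10 lay below (background 5.64%) and 0 above (background 5.88%). Within each comparison, at most 1 member beyond the chosen one did not overlap, near what these shares give for 10 probe sets.

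**Figure D5:**
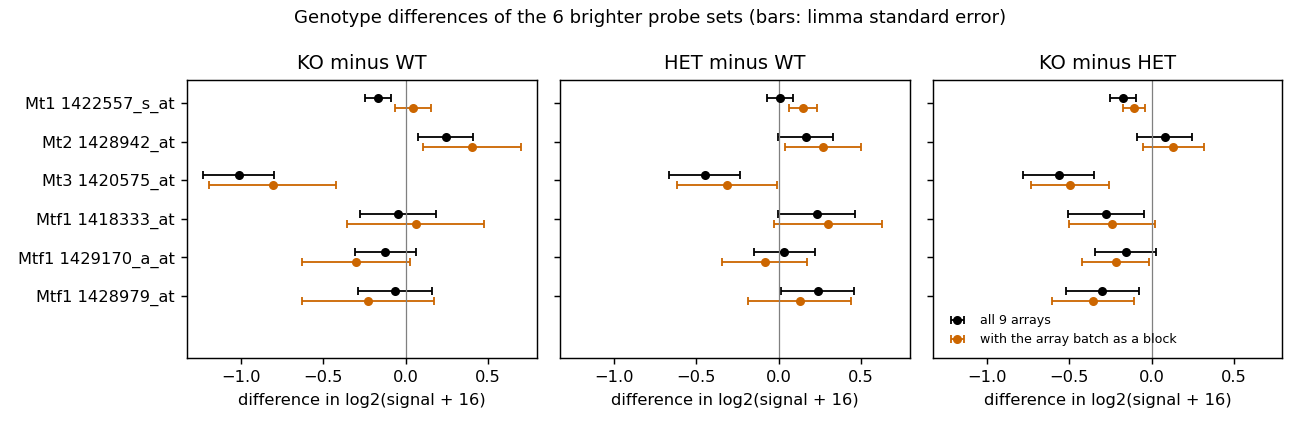
Differences in log2(signal + 16) (x axis) between genotypes for the 6 probe sets at or above the 40th percentile of brightness, with limma standard errors, over all 9 arrays (black) and with the array batch as a block (orange). Mt3 lies at -1.01 for KO minus WT, the contrast that chose it, and Mt1 moves from -0.17 to 0.04 with the block.

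Other genes of zinc and copper handling, and of the signals that act on metallothioneins, were counted through 6 lists, with the brightest probe set of each gene. No gene of any list was called in any of the comparisons, where 0.39% of 18193 genes were called between KO and WT, 0.0% between HET and WT and 0.011% between KO and HET (limma). At an unadjusted p under 0.05, 2496 of the 18193 genes differed between KO and WT, 1724 between HET and WT and 861 between KO and HET. The median difference over all genes was -0.02 for KO minus WT (0.01 with the array batch as a block), -0.0053 for HET minus WT and -0.02 for KO minus HET. Of all genes, 53.4% were lower in KO than in WT. Over the 6 lists the medians ran from -0.16 (described MTF1 targets) to 0.01 for HET minus WT, and from -0.04 to 0.13 (oxidative and metal stress) for KO minus HET.

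Among 10 zinc exporters of the Slc30 family, 6 were lower in KO and 4 higher, with a median of -0.08, which turned to 0.03 with the array batch as a block. Only Slc30a7 had an unadjusted p under 0.05. It encodes a carrier that loads zinc into the Golgi, and it read 228 ± 29.9 in WT and 302 ± 23.4 in KO (0.39 ± 0.14, limma, adjusted p = 0.238; 0.35 ± 0.24 with the block). The KO minus WT difference was 0.20 ± 0.12 for Slc30a5, another carrier of the secretory pathway, and -0.00093 ± 0.20 with the block. It was -0.23 for Slc30a1, the zinc exporter of the plasma membrane and a target of MTF1, and 0.40 ± 0.21 there with the array batch as a block. Among 14 zinc importers of the Slc39 family, 6 were lower and 8 higher, with a median of 0.10, which turned to -0.01 with the block. The unadjusted p was under 0.05 for 2 of them, Slc39a1 (0.34 ± 0.12, and -0.03 with the block) and Slc39a6 (0.31 ± 0.14, and -0.12 with the block), and Slc39a10 gave 0.24, and 0.0059 with the block.

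Of 16 copper handling genes, 11 were lower in KO and 5 higher, with a median of -0.11, and of -0.02 with the array batch as a block. An unadjusted p under 0.05 was reached by 2 of them, Atox1 and Cox11. Atox1, the chaperone that hands copper to the pumps of the secretory pathway, read 2479 ± 188 in WT, 1938 ± 487 in HET and 1851 ± 153 in KO (KO minus WT -0.42 ± 0.13, limma, adjusted p = 0.167). With the array batch as a block it gave 0.15 ± 0.15, so its sign turned. Atox1 was called between KO and WT with only the 6 arrays compared and without HET replicate 1. These settings called 1153 and 1313 of all probe sets. Without HET replicate 1, Atox1 was also called between HET and WT, where 883 of all probe sets were called. Cox11, which brings copper to cytochrome oxidase, gave 0.36 ± 0.15, and the copper pump gene Atp7a gave 0.42 ± 0.24, with -0.25 and -0.30 under the block.

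Of 10 genes described as MTF1 targets, 7 were lower in KO and 3 higher, with a median of -0.09, which turned to 0.05 with the array batch as a block. An unadjusted p under 0.05 was reached by 2 of them, Selenoh and Txnrd2. The list was not sorted by whether MTF1 raises or lowers a gene, so these counts do not read its activity. Selenoh, a selenoprotein gene, read 3599 ± 137 in WT, 3107 ± 70.0 in HET and 2858 ± 72.0 in KO, with no overlap between any of the genotypes. Of all probe sets, 9.31% had every KO array below every WT array. Every HET array lay below every WT array in 5.64%, and every KO array below every HET array in 5.93%. Its KO minus WT difference was -0.33 ± 0.07, just short of a call (limma, adjusted p = 0.0567), and -0.28 ± 0.11 with the block. It was called with dim probe sets left out (with all or with 1 probe set per gene) and with a pseudocount of 1. The same held with array weights, with only the 6 arrays compared and without HET replicate 1. It was not called with quantile normalization, arrays shifted to one median, a pseudocount of 64 or no intensity trend. Nor was it with the replicate number or the array batch as a block, or with any array other than HET replicate 1 left out. Txnrd2, the mitochondrial thioredoxin reductase, gave -0.49 ± 0.14 (limma, adjusted p = 0.14), and -0.02 with the block.

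Of 15 glucocorticoid-responsive genes, 5 were lower and 10 higher, with a median of 0.01, and of 0.11 with the array batch as a block. The unadjusted p was under 0.05 for 0 of them. The smallest p were those of Hif3a (-0.20 ± 0.10), Tsc22d3, which encodes the glucocorticoid-induced leucine zipper (0.16 ± 0.08), and Klf9 (0.18 ± 0.10), with -0.15, 0.11 and 0.28 under the block. Of 14 oxidative and metal stress genes, 6 were lower and 8 higher, with a median of 0.15. The unadjusted p was under 0.05 for 5 of them, against 2496 of the 18193 genes in all. Txnrd1, the cytosolic thioredoxin reductase, gave 0.40 ± 0.11 (limma, adjusted p = 0.111), the ferritin heavy chain gene Fth1 -0.25 ± 0.09, and the inducible heat shock gene Hspa1b 0.75 ± 0.29. With the block they gave 0.07, -0.01 and 0.34. The rest of the 5 were Gclm (-0.30 ± 0.13) and Txn1 (-0.17 ± 0.07), both lower in KO, with -0.52 ± 0.22 and 0.0099 ± 0.10 under the block. The median of this list was 0.0008 with the block.

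Genes whose pattern over the 9 arrays was most like that of a metallothionein were taken by Pearson's r of log2(signal + 16) among 13028 genes, as a description with no test. For Mt3 these were Ascc1 (0.97), Fbxl17 (0.94), Syde1 (0.94), Fndc5 (0.93) and Eepd1 (0.93). Of them Fndc5, the irisin precursor gene, read 209 in WT, 143 in HET and 89.6 in KO on average, values that its likeness to Mt3 had selected. For Mt1 they were Ptpn5 (0.96), Mindy2 (0.95), Cyfip2 (0.95), Mknk1 (0.93) and the complex I subunit gene Ndufa7 (0.92). For Mt2 they were Slc36a4 (0.93), Slfn5 (0.91), Foxl2 (0.91), Spint1 (0.88) and Ric1 (0.88). The 3 sets shared no gene. For Mt1 and Mt2 this was fixed by their r of -0.22, since no gene can lie that close to both. It was fixed in the same way for Mt2 and Mt3, whose r over the 9 arrays was also negative. With 9 arrays, 17 genes had an r above 0.9 with Mt1, 3 with Mt2 and 14 with Mt3.

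The protein-coding genes that flank the cluster, chosen by position, were Bbs2 beside Mt4 and Nup93 beside Mt1. Bbs2, a gene of the ciliary BBSome complex, read 122 ± 35.5 in WT, 136 ± 27.6 in HET and 80.0 ± 16.3 in KO (KO minus WT -0.51 ± 0.24, limma, adjusted p = 0.428). Nup93, which encodes a nuclear pore protein, read 663 ± 34.1, 625 ± 30.7 and 596 ± 62.5 (-0.15 ± 0.10, limma, adjusted p = 0.63). Neither passed, and with the array batch as a block they gave -0.18 and -0.21.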

How the data were processed

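RNA of 9 fetal ventricle samples was measured on 1 Affymetrix array each. Per the submitters' processing notes, the authors deposited MAS5 output, here read as linear intensity. Detection calls were not used here. On each array the mean with 2% trimmed from both ends was 200.0, so arrays had been scaled by a factor before deposit, which leaves differences in background that weigh most on dim probe sets.

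Gene names come from the platform annotation. Its gene IDs gave current symbols in the RefSeq table (GRCm38.p6). Beside 64 controls there were 45037 probe sets, of which 34945 name 1 gene, 932 several and 9160 none, and none of those with several names a member. Genotypes were compared on log2(signal + 16) with limma 3.58.1 in R 4.3.3 (1 mean per genotype over 9 arrays, eBayes with an intensity trend). Tests were two-sided with Benjamini-Hochberg adjustment over all 45037 probe sets within a comparison, and a call was an adjusted p under 0.05. Arrays were parted into 2 array batches where the sorted log2 thr to dap values had their widest gap. With the batch in the fit, 5 residual degrees of freedom remained, against 6 without. After a log2 difference, ± gives the standard error from limma, and after a signal the SD. The fit was repeated with pseudocounts of 1 and 64, quantile normalization, arrays shifted to a common median, a filter at the 40th percentile, that filter with 1 probe set per gene, no intensity trend, array weights, the 6 arrays of a comparison alone, the array batch or the replicate number as a block, values within an array batch, and leaving out each array.

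The members, lists, tests and alternatives were chosen with earlier results of these data known. All probe sets of the members are given. In each list the genes called, or otherwise up to 3 with the smallest p between KO and WT, are named. Gclm and Txn1 are named beside those of the oxidative and metal stress list. For Mt1, Mt2 and Mt3 the 5 genes with the highest r are named. Counts, correlations and figures came from Python 3.11.15 with scipy 1.17.1 and matplotlib 3.10.9.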

Additional observations from a re-analysis of the deposited data

How the results depend on the processing

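No member probe set other than Mt3 was called in any comparison under any alternative run. The adjusted p of Mt1 between KO and WT ranged from 0.185 to 0.975 and that of Mt2 from 0.425 to 0.982. Mt3 kept the lower mean in KO than in WT, in KO than in HET and in HET than in WT under each alternative, with KO minus WT from -1.30 to -0.81. Signs that turned belong to differences that were not called. With the array batch as a block, KO minus WT turned for Mt1 (0.041) and for Mtf1 1418333_at (0.060). Both values rest on HET replicate 1, the only HET array of the first batch. HET minus WT turned for Mt1 with arrays shifted to one median (-0.039) or with array weights (-0.024), and for Mtf1 1429170_a_at with quantile normalization (-0.038), one median (-0.012), and the array batch as a block or within one batch (-0.085). Leaving out 1 array gave ranges across 0 for Mt1 HET minus WT (-0.066 to 0.064), Mt2 KO minus WT (-0.022 to 0.44) and KO minus HET (-0.19 to 0.28), and for Mtf1 1418333_at (-0.28 to 0.20) and 1428979_at (-0.21 to 0.042) KO minus WT and 1429170_a_at HET minus WT (-0.077 to 0.092). Pearson's r of Mt1 and Mt2 turned to 0.57, and Spearman's rho to 0.21, without KO replicates 2 and 3.

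The number of probe sets called between KO and WT, 134, was 82 with quantile normalization, 11 with one median (4 higher and 7 lower, against 83 and 51), 283 and 21 with pseudocounts of 1 and 64, 171 with the filter on dim probe sets (106 higher and 65 lower), 211 with that filter and 1 probe set per gene (96 higher and 115 lower), 0 without the trend (limma, 4007 at an unadjusted p under 0.05), 515 with array weights, 1153 with only the 6 arrays compared and 1 with the array batch as a block. Without 1 array it ranged from 12 (without WT replicate 3 or KO replicate 1) to 1313 (without HET replicate 1), and was 27 and 25 without WT replicates 1 and 2, 17 and 22 without KO replicates 2 and 3, and 203 without HET replicate 2. Between HET and WT it was 0, against 1 with the array batch as a block, 2 within one batch and 0 to 883 without 1 array (883 without HET replicate 1). Between KO and HET it was 2, against 1 with quantile normalization, 0 with one median, a pseudocount of 64, no trend, the 6 arrays, the array batch block or within one batch, and 0 to 1 without 1 array. With the replicate number as a block the counts were 146, 1 and 0. Arrays of the same number did not deviate together (r of -0.040 to 0.037 over probe sets), and not every array correlated best with its own number. The numbers thus gave no sign of pairing, which such values cannot exclude. Of the genes of the 6 lists, 1 (Selenoh) was called between KO and WT with a pseudocount of 1 or array weights. The same held with the filter, and with the filter and 1 probe set per gene. With only the 6 arrays, and without HET replicate 1, 4 were called (Atox1, Selenoh, Txnrd1 and Txnrd2). Without 1 array the count was 0 to 4 between KO and WT. It was 0 to 1 between HET and WT (Atox1, without HET replicate 1). The cause of these changes was not tested. The number of arrays and the dim signals of Mt4 and of 3 other member probe sets limit what could be seen.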
